A study of Arabidopsis thaliana with 10 samples.

Results

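Xyloglucan endotransglucosylase/hydrolases (XTHs) are secreted enzymes of the plant cell wall, and 10 of the 33 XTH genes of Arabidopsis thaliana are described here across 5 groups of dark-grown seedlings. The 10 genes are XTH4 (AT2G06850), XTH5 (AT5G13870), XTH15 (AT4G14130), XTH16 (AT3G23730), XTH17 (AT1G65310), XTH18 (AT4G30280), XTH19 (AT4G30290), XTH22 (AT5G57560, also named TCH4), XTH23 (AT4G25810) and XTH24 (AT4G30270). They were taken by locus identifier out of 32753 loci in the table, and the rule sets no threshold on their values. The genes were nevertheless chosen with earlier results of these data known. Their counts and medians beside those of all loci are therefore descriptions. Each of the 10 had 1 transcript in the table, and all 10 passed the filter on low values.

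Xyloglucan is a branched glucan that coats and tethers cellulose in the primary wall. An XTH cuts a xyloglucan chain and joins the new end to another chain, or in some family members to water, so the family can both loosen and rebuild a wall that is being stretched. In seedlings kept in the dark the hypocotyl grows mainly by cell elongation, and brassinosteroids, the steroid hormones seen by the receptor kinase BRI1 and its co-receptor BAK1, are required for that growth. XTH22 is a long known brassinosteroid-responsive and touch-responsive gene.

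The RNA came from whole seedlings, 5 days old, raised without light on medium that held 2 µM PPZ, an abbreviation that the labels do not spell out. All 5 groups shared the PPZ and the darkness. Col-0, the wild-type accession, had mock medium or rapamycin at 100 nM. Rapamycin is a macrolide that brings the proteins FKBP and FRB together. The RiD-BRI1/BAK1 line, called RiD below, had mock medium, rapamycin at 100 nM, or brassinolide at 100 nM. Brassinolide is the brassinosteroid with the strongest activity. Each group held 2 libraries, numbered 1 and 2. The sources used here do not give the promoter behind the introduced receptor parts, the number of independent lines or the pooling of seedlings. By its title, the study was about controlling a plant membrane receptor kinase with a chemical.

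Levels are normalized counts, the unit the authors deposited, and the totals per library ran from 23244655 to 26987555. Libraries numbered 1 held an estimated 18.4 to 19.9 M reads and those numbered 2 an estimated 29.2 to 33.9 M. The 19.9 M is that of Col-0 mock 1. There only 51.72% of low values lay within 0.1 reads of a whole read, so that estimate is uncertain. A value from 3 reads was put between 2.19 and 4.18 normalized counts. BRI1 transcript stood at 3420 and 5625 normalized counts in the Col-0 mock libraries and at 8509 and 12206 in RiD mock, and BAK1 at 2104 and 1899 against 5116 and 4908. In limma the RiD mock minus Col-0 mock difference was 1.22 (log2) for BRI1, adjusted p = 1, and 1.33 for BAK1, adjusted p = 0.102. A fit that blocked on library number gave adjusted p of 6.2e-05 for BRI1 and 2.32e-06 for BAK1.

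The catalytic site shows what the 10 enzymes share, so 30 coding bases around it are shown for each, 5′ to 3′ on the coding strand, read from RefSeq's TAIR10.1 genome. Capitals mark the codons of the 3 acidic residues of the family 16 glycoside hydrolase motif. These are the nucleophile, a helper residue and the acid/base, in that order.
XTH4: catgacGAGataGACtttGAGttccttgga
XTH5: catgatGAGataGACtttGAGtttctaggg
XTH15: catgacGAGataGACtttGAGtttctaggt
XTH16: cacgacGAGataGACtttGAGtttcttggt
XTH17: tgggatGAGatcGATttcGAGttcttggga
XTH18: tgggatGAGattGATttcGAGttcttagga
XTH19: tgggatGAGattGATttcGAGtttttgggg
XTH22: tgggacGAGataGATttcGAGtttttaggg
XTH23: tgggacGAGattGACtttGAGttcttggga
XTH24: tgggatGAGattGATtttGAGttcttgggt
The capital codons for the nucleophile and the acid/base were GAG in all 10 genes. The first codon of the window was cat or cac in XTH4, XTH5, XTH15 and XTH16, and tgg in the other 6. The closest pairs over the whole coding sequence were XTH17 with XTH18 at 92.23% identity, XTH18 with XTH19 at 89.21% and XTH17 with XTH19 at 88.61%. XTH15 and XTH16 were 81.66% identical, XTH22 and XTH23 80.92%, and XTH4 and XTH5 72.53%.

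In RiD seedlings given rapamycin the XTH transcripts parted in direction. XTH23, XTH18, XTH19, XTH22, XTH4 and XTH5 rose, by 4.82-fold, 3.75-fold, 3.47-fold, 2.91-fold, 2.31-fold and 1.85-fold, while XTH15 and XTH16 fell, being 3.30-fold and 2.25-fold lower than with mock. XTH17 and XTH24 did not pass the test. These folds compare RiD rapamycin with RiD mock, with n = 2 libraries each, and are fitted on log2(normalized count + 1). A gene is said to have risen or fallen where limma's Benjamini-Hochberg adjusted p over all 23285 loci tested was under 0.05. Among all loci tested 12.3% were called higher and 9.72% lower in this comparison. The median log2 difference was 1.05 over the 10 genes and -0.03 over all loci.

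Brassinolide in the same line gave 3 calls among the 10, all of them higher, for XTH23, XTH22 and XTH18. Of all loci tested 4.63% were called higher and 2.13% lower with brassinolide, and the median log2 difference was 0.46 over the 10 genes against -0.02 over all loci. Set against each other directly, rapamycin stood above brassinolide for XTH19, XTH18, XTH5 and XTH4 and below it for XTH15 and XTH16. The background there was 1.03% of loci called higher and 1.53% lower. In Col-0, rapamycin gave no call among the 10 genes, and 0% of all loci were called. The responses to rapamycin and brassinolide were each measured against the same 2 mock libraries, so their values below are set side by side and not correlated.

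**Figure D1:**
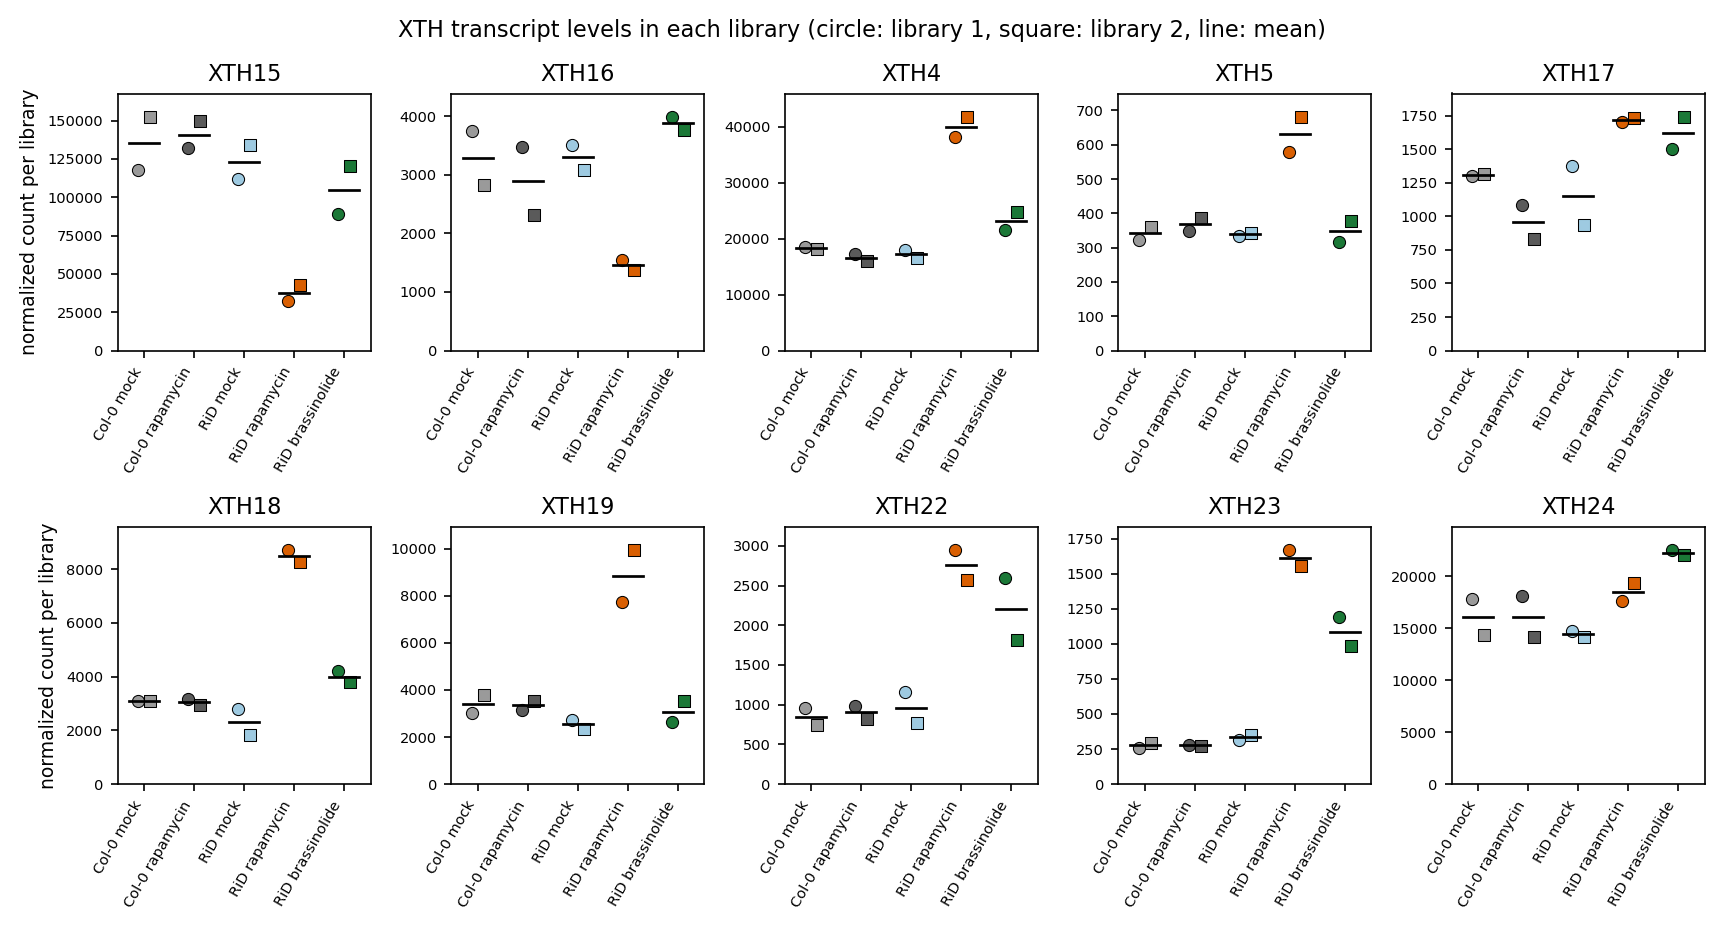
Normalized counts (y axis, linear from 0, one scale per gene) of the 10 XTH genes in each of the 10 libraries, with circles for libraries numbered 1, squares for those numbered 2 and a line for the group mean. The RiD rapamycin points of XTH15 (32436 and 42603) lie below all other libraries, and those of XTH18 (8696 and 8263) lie above all others.

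XTH15 had the highest group mean of the 10 in every group but RiD rapamycin, where XTH4 was higher in normalized counts. It spans chr4:8137020-8138392 on the minus strand of TAIR10.1, in 3 exons. It is an enzyme of growing shoots whose transcript is known to respond to shade. Its values in RiD were 111721 and 134282 normalized counts with mock, 32436 and 42603 with rapamycin and 88788 and 120271 with brassinolide. In Col-0 they were 117883 and 152381 with mock and 131839 and 149425 with rapamycin. Both rapamycin libraries of RiD lay far below every other library, whereas the brassinolide libraries overlapped those of RiD mock. The RiD rapamycin minus RiD mock difference was -1.72 (log2, SE 0.230), limma adjusted p = 0.00143. The brassinolide minus mock difference was -0.25, adjusted p = 0.648, and 0.038 with the block. Between rapamycin and brassinolide the difference was -1.48, adjusted p = 0.0172. That last call was lost on leaving out either RiD rapamycin or either RiD brassinolide library, at adjusted p of 0.0547 to 0.135. A protein-coding gene on the opposite strand, AT4G14120, overlaps XTH15 by 382 bases, and it held 0.00 to 15.39 normalized counts.

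XTH16, the closest relative of XTH15 among the 10, lies at chr3:8550037-8551403 on the plus strand and was lower with rapamycin too. Its values in RiD were 3509 and 3085 normalized counts with mock, 1542 and 1381 with rapamycin, and 3988 and 3766 with brassinolide. In Col-0 they were 3752 and 2826 with mock and 3471 and 2309.6 with rapamycin. The rapamycin libraries of RiD were the lowest of the 10 and the brassinolide libraries the highest. The rapamycin minus mock difference in RiD was -1.17 (SE 0.225), adjusted p = 0.00755, and without RiD rapamycin 2 the adjusted p was 0.0503. The brassinolide minus mock difference was 0.24, adjusted p = 0.653, with a 95% interval of -0.280 to 0.752. Rapamycin and brassinolide differed by -1.41, adjusted p = 0.0187. Here as well the call was lost on leaving out either library of either of these groups, at 0.0878 to 0.133.

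XTH4 and XTH5 are wall enzymes of expanding tissues, and XTH4 is known for a role in xylem cells. XTH4 lies at chr2:2763449-2765743 on the plus strand and XTH5 at chr5:4474922-4477090 on the minus strand. XTH4 stood at 17951 and 16582 normalized counts in RiD mock, 38215.5 and 41728 in RiD rapamycin and 21451 and 24758 in RiD brassinolide. In Col-0 it stood at 18502 and 18106 with mock and 17231 and 15959.6 with rapamycin. The 2 rapamycin libraries of RiD stood clear of the rest, with the 2 brassinolide libraries next. The rapamycin minus mock difference in RiD was 1.21 (SE 0.146), adjusted p = 0.000841. For brassinolide minus mock it was 0.42, adjusted p = 0.15, and 0.00374 with the number as a block.

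XTH5 was a low member of the set, at 334 and 344 normalized counts in RiD mock, 580.1 and 681 in RiD rapamycin and 318 and 377 in RiD brassinolide. In Col-0 it had 323 and 361 with mock and 348 and 387 with rapamycin, so 8 of the 10 libraries lay within one narrow band. The rapamycin minus mock difference in RiD was 0.89 (SE 0.164), adjusted p = 0.00621. The brassinolide minus mock difference was 0.03, with a 95% interval of -0.347 to 0.406 and adjusted p = 0.96. Rapamycin exceeded brassinolide by 0.79 for XTH4, adjusted p = 0.0321, and by 0.86 for XTH5, adjusted p = 0.0359. Both of these calls were lost on leaving out any 1 of the 10 libraries, at 0.0542 to 0.204 for XTH4 and 0.0611 to 0.223 for XTH5.

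XTH17, XTH18 and XTH19 form a group of close copies known mainly from roots. XTH18 and XTH19 lie side by side on chromosome 4 with XTH24, all on the minus strand, with 5161 bases between XTH24 and XTH18, 1500 bases between XTH18 and XTH19 and no other annotated protein-coding gene among them. XTH18 spans chr4:14825757-14827211, XTH19 chr4:14828712-14830224 and XTH24 chr4:14819192-14820595. XTH17 is on chromosome 1, at chr1:24257054-24258506 on the plus strand. The coding sequences of XTH17 and XTH18 share 56 words of 31 bases out of the 819 in XTH18, and XTH18 and XTH19 share 43. The sources used here do not say how the authors' counting split reads among these copies, so the values of the 3 genes are uncertain to that degree.

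XTH18 had 2777 and 1839.8 normalized counts in RiD mock, 8696 and 8263 in RiD rapamycin and 4191 and 3794 in RiD brassinolide. In Col-0 it had 3077 and 3078 with mock and 3176 and 2938 with rapamycin. Every RiD rapamycin value was above every brassinolide value, and every brassinolide value above all mock and Col-0 values. Rapamycin minus mock gave a difference of 1.91 (SE 0.198), adjusted p = 0.000428. For brassinolide minus mock it was 0.82 (SE 0.198), adjusted p = 0.0476, and it kept that side of the threshold in 1 of the 10 fits that left out a library, the one without RiD mock 1. The other 9 gave 0.0751 to 0.268. Rapamycin exceeded brassinolide by 1.09, adjusted p = 0.0313, and 8 of the 10 fits without a library gave 0.0569 to 0.195, the exceptions being those without RiD mock 1 or RiD mock 2.

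XTH19 rose with rapamycin and did not pass the test with brassinolide. Its values in RiD were 2729 and 2342 normalized counts with mock, 7736 and 9935 with rapamycin and 2655 and 3514 with brassinolide. In Col-0 they were 3039 and 3798 with mock and 3166 and 3519 with rapamycin. The brassinolide libraries fell inside the range of the mock and Col-0 libraries, and the rapamycin libraries lay above all of them. The rapamycin minus mock difference was 1.79 (SE 0.209), adjusted p = 0.000752. For brassinolide minus mock it was 0.27, with a 95% interval of -0.209 to 0.754 and adjusted p = 0.558. Rapamycin exceeded brassinolide by 1.52, adjusted p = 0.0108, a call lost without RiD rapamycin 2 or RiD brassinolide 1, at 0.0845 and 0.0956.

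XTH17 had the smallest rapamycin difference from mock among the 3 copies. It stood at 1376 and 934 normalized counts in RiD mock, 1702 and 1736 in RiD rapamycin and 1499 and 1742 in RiD brassinolide. In Col-0 it had 1299.9 and 1317 with mock and 1082 and 831 with rapamycin. The treated RiD libraries were the 4 highest, but the RiD mock libraries lay far apart from each other. Against mock, the rapamycin difference was 0.60 (SE 0.214), adjusted p = 0.083, with 0.0369 without RiD mock 1 and 0.00777 with the block. For brassinolide minus mock it was 0.51, adjusted p = 0.232, and 0.031 with the block. Rapamycin and brassinolide differed by 0.09, with a 95% interval of -0.403 to 0.582.

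Per kb of transcript, XTH18 exceeded XTH17 by a ratio of 1.73 and 1.69 in the RiD mock libraries. In Col-0 the ratio was 2.03 and 2.00 with mock and 2.52 and 3.03 with rapamycin. The ratio was 4.38 and 4.08 in RiD rapamycin and 2.40 and 1.87 in RiD brassinolide. The ratio was thus highest in the 2 libraries of RiD rapamycin, as a description of these libraries. The bases just upstream of the annotated starts of this pair are shown because they are the same letter for letter. The windows are 250 bases from RefSeq's TAIR10.1, in the direction of transcription, with the 73 identical bases next to the start in capitals. XTH17 is read from the plus strand at chr1:24256804-24257053 and XTH18 from the minus strand at chr4:14827212-14827461.
XTH17: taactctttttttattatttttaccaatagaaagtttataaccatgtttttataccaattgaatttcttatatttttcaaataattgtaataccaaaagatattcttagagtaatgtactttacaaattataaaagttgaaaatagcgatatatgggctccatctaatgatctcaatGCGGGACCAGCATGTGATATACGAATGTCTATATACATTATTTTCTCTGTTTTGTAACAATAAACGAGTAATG
XTH18: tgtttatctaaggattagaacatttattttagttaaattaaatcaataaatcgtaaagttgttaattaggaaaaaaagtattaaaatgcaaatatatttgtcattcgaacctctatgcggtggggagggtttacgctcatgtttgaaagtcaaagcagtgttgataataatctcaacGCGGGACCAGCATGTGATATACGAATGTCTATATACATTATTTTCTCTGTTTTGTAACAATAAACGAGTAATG
No other pair of the 10 genes shared more than 2 identical bases directly at the start. The letters before the capitals differ between the pair, and what either stretch does was not tested.

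XTH22 and XTH23 passed the test with both treatments, as did XTH18. XTH22 encodes the touch-responsive enzyme TCH4 and lies at chr5:23307006-23308680 on the minus strand, while XTH23 lies at chr4:13128394-13129927 on the plus strand. XTH22 stood at 1154 and 774 normalized counts in RiD mock, 2944 and 2575 in RiD rapamycin and 2597 and 1811 in RiD brassinolide. In Col-0 it stood at 956 and 746 with mock and 986 and 824 with rapamycin. All 4 treated RiD libraries lay above all 6 others, and the rapamycin and brassinolide libraries overlapped. With rapamycin the difference from mock was 1.54 (SE 0.257), adjusted p = 0.00405. For brassinolide minus mock it was 1.198 (SE 0.257), 2.29-fold, adjusted p = 0.0309. That call was lost without Col-0 rapamycin 1, Col-0 rapamycin 2, RiD mock 2 or RiD brassinolide 1, at 0.0521 to 0.22. Rapamycin and brassinolide differed by 0.34, adjusted p = 0.639, with a 95% interval of -0.247 to 0.935. With the block the adjusted p was 0.0321, and the rapamycin library was the higher one under both numbers.

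XTH23, its relative, had the largest rise of the 10 with either treatment. Its values in RiD were 317 and 349 normalized counts with mock, 1666 and 1552 with rapamycin and 1188 and 987 with brassinolide. In Col-0 they were 259 and 292 with mock and 277 and 274 with rapamycin. No treated RiD library came near the mock or Col-0 libraries, and the rapamycin values lay above the brassinolide values. The rapamycin minus mock difference was 2.27 (SE 0.155), adjusted p = 6.18e-05. For brassinolide minus mock it was 1.70 (SE 0.155), 3.25-fold, adjusted p = 0.000889, and both calls held in each fit that left out a library. Rapamycin exceeded brassinolide by 0.57, with a 95% interval of 0.215 to 0.925. That difference missed the threshold at adjusted p = 0.111 and passed it at 0.00344 with the block.

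Upstream of XTH23 the 250 bases before the annotated start hold CGTGTG, one of the sequences to which the brassinosteroid transcription factors BZR1 and BES1 are known to bind. They are shown with that motif in capitals, from 94 to 89 bases before the start, on the plus strand of TAIR10.1 at chr4:13128144-13128393.
XTH23: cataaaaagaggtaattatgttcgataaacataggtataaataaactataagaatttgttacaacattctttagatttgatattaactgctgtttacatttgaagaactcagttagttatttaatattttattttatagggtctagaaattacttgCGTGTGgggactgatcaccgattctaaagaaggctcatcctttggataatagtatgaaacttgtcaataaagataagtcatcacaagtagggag
Windows of the same length were searched on both strands for 26638 protein-coding genes. CGTGTG was in 1 of the 10 XTH windows and in 5.38% of all windows. CGTGCG was in none of the 10 and in 1.58% of all, and CACGTG in none of the 10 and in 6.59% of all. The general E-box CANNTG, which includes CACGTG, was in 8 of the 10 and in 55.34% of all. A match in these letters is a description of the window and shows no binding.

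XTH24, also known as MERI5 from its transcript in the shoot meristem, was the third most abundant member with RiD mock. It stood at 14749.7 and 14206 normalized counts in RiD mock, 17639.5 and 19386 in RiD rapamycin and 22516 and 22072 in RiD brassinolide. In Col-0 it stood at 17808 and 14406 with mock and 18119 and 14169 with rapamycin. The brassinolide libraries were the highest of the 10, and the other groups overlapped with one another except for RiD mock and RiD rapamycin. The brassinolide minus mock difference was 0.62, adjusted p = 0.0799, and 0.000608 with the block. For rapamycin minus mock it was 0.35, adjusted p = 0.194, and 0.0143 with the block. Its rapamycin minus brassinolide difference was -0.27, adjusted p = 0.568, with a 95% interval of -0.672 to 0.133. Its neighbours XTH18 and XTH19 in the chromosome 4 array thus had rapamycin differences of 1.91 and 1.79 beside 0.35 for XTH24.

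**Figure D2:**
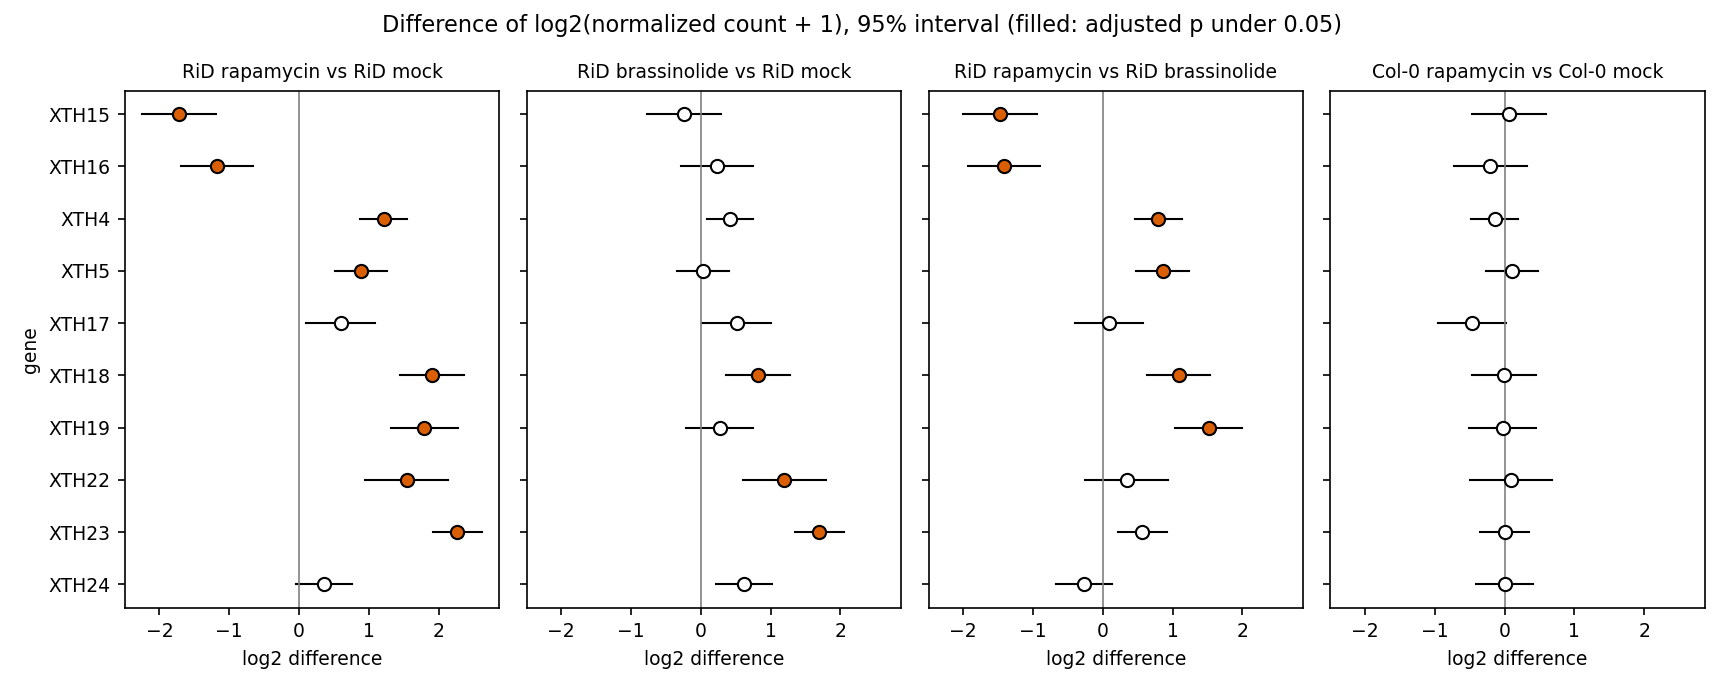
Differences of log2(normalized count + 1) with 95% intervals (x axis) for the 10 genes (y axis) in 4 comparisons, with filled points for adjusted p under 0.05. XTH15 and XTH16 lie left of 0 for rapamycin in RiD, at -1.72 and -1.17, and all 10 Col-0 intervals include 0.

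Libraries with the same number deviated from their group means together, so the fit with the number as a block is given as well. There all 10 genes were called for rapamycin against mock in RiD, 8 higher and 2 lower. Of all 23285 loci 48.2% were called, 5604 higher and 5611 lower. For brassinolide against mock 6 were called higher and 1, XTH15, lower, beside 3445 and 2979 of all loci (27.6% together). For rapamycin against brassinolide 6 were called higher and 2 lower, beside 2534 and 2116 of all loci (20.0% together). Within the numbers, XTH5 and XTH15 were higher in library 2 than in library 1 in all 5 groups, and XTH16 and XTH22 were lower in library 2 in all 5. No label says whether the number marks a planting, an extraction or a run.

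Col-0 seedlings served as the comparison for rapamycin outside the RiD line. None of the 10 genes was called, and the log2 differences between Col-0 rapamycin and Col-0 mock ran from -0.46 for XTH17 to 0.10 for XTH5. In limma 0 of the 10 genes had an unadjusted p under 0.05, and 557 of all loci did. With the block 0 of the 10 were called, against 0.185% of loci. In that fit 1 of the 10 had an unadjusted p under 0.05, and 1758 of all 23285 loci did. For the genes with the largest rises in RiD the 95% intervals in Col-0 were -0.353 to 0.357 for XTH23 and -0.465 to 0.444 for XTH18.

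The rapamycin effect in RiD minus that in Col-0 was tested directly. It was called for 6 of the 10 genes. XTH23 differed by 2.27 (log2, adjusted p = 0.000857), XTH18 by 1.92, XTH19 by 1.82, XTH22 by 1.45 and XTH4 by 1.35, all higher, and XTH15 by -1.79. Of all loci 6.49% were called higher and 3.56% lower in this test. The difference was 0.78 for XTH5 at adjusted p = 0.0728, -0.97 for XTH16 at 0.101, 1.06 for XTH17 at 0.0648 and 0.35 for XTH24 at 0.45. With the block 7 genes were called higher and 2 lower, all but XTH24, beside 4238 and 3655 of all loci (33.9% together). XTH15 lost its call without Col-0 rapamycin 2, at 0.0528, and XTH17 gained one without RiD mock 1, at 0.0349. XTH22 lost its call in 7 of the 10 fits without a library, at 0.061 to 0.144. The exceptions were those without RiD mock 1, RiD brassinolide 1 or RiD brassinolide 2. With all libraries XTH22 also lost it under upper quartile rescaling (0.073) and in limma without trend and robust moderation (0.0658). Taking only the transcript with the highest mean gave 0.05 for XTH22, again without a call.

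Between the lines on mock medium no difference in these genes passed the test. RiD mock minus Col-0 mock ran from -0.45 for XTH18 to 0.28 for XTH23, with no call among the 10 and 0% of all loci called. None of the 10 had an unadjusted p under 0.05, and 695 of all loci did. With the block 0 of the 10 were called, against 0.356% of loci. In that fit 3 of the 10 had an unadjusted p under 0.05, and 2671 of all 23285 loci did.

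Set on 1 scale per kb of transcript, the levels of the 10 genes covered a wide range. In RiD mock XTH15 stood at 101907 normalized counts per kb, XTH4 at 13140, XTH24 at 11965, XTH16 at 2712, XTH19 at 1899, XTH18 at 1828, XTH17 at 1068, XTH22 at 606, XTH23 at 243 and XTH5 at 227. In that order XTH19 and XTH18 were the neighbours whose libraries overlapped. XTH15 ranked 1 of the 33 family members in all 5 groups by group mean. In RiD rapamycin, however, its libraries, at 26873 and 35296 per kb, overlapped those of XTH4, at 29083 and 31757. XTH23 overlapped XTH16 in RiD rapamycin, at 1213 and 1130.3 per kb against 1268 and 1136, where in RiD mock the levels were 231 and 254 against 2886 and 2537.

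The pool of XTH transcript thus had another make-up with rapamycin in RiD. XTH15 made up 71.57 to 79.23% of the summed level per kb of the 10 genes in the 6 Col-0 and RiD mock libraries. It made up 30.02 and 34.27% in RiD rapamycin and 60.70 and 66.79% in RiD brassinolide. XTH18 and XTH19 together held 2.24 to 3.45% in those 6 libraries, 14.17 and 13.58% in RiD rapamycin and 4.38 and 3.78% in RiD brassinolide. Summed over the 10 genes, the level per kb was 127994 to 161681 in the 6 libraries, 89510 and 103006 in RiD rapamycin and 121179 and 149181 in RiD brassinolide. Without XTH15 the order turned, at 31944 to 38804 in the 6 libraries, 62636 and 67710 in RiD rapamycin and 47617 and 49537 in RiD brassinolide. A sum over all 10 genes therefore followed XTH15, and the sum of the other 9 was highest with rapamycin.

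**Figure D3:**
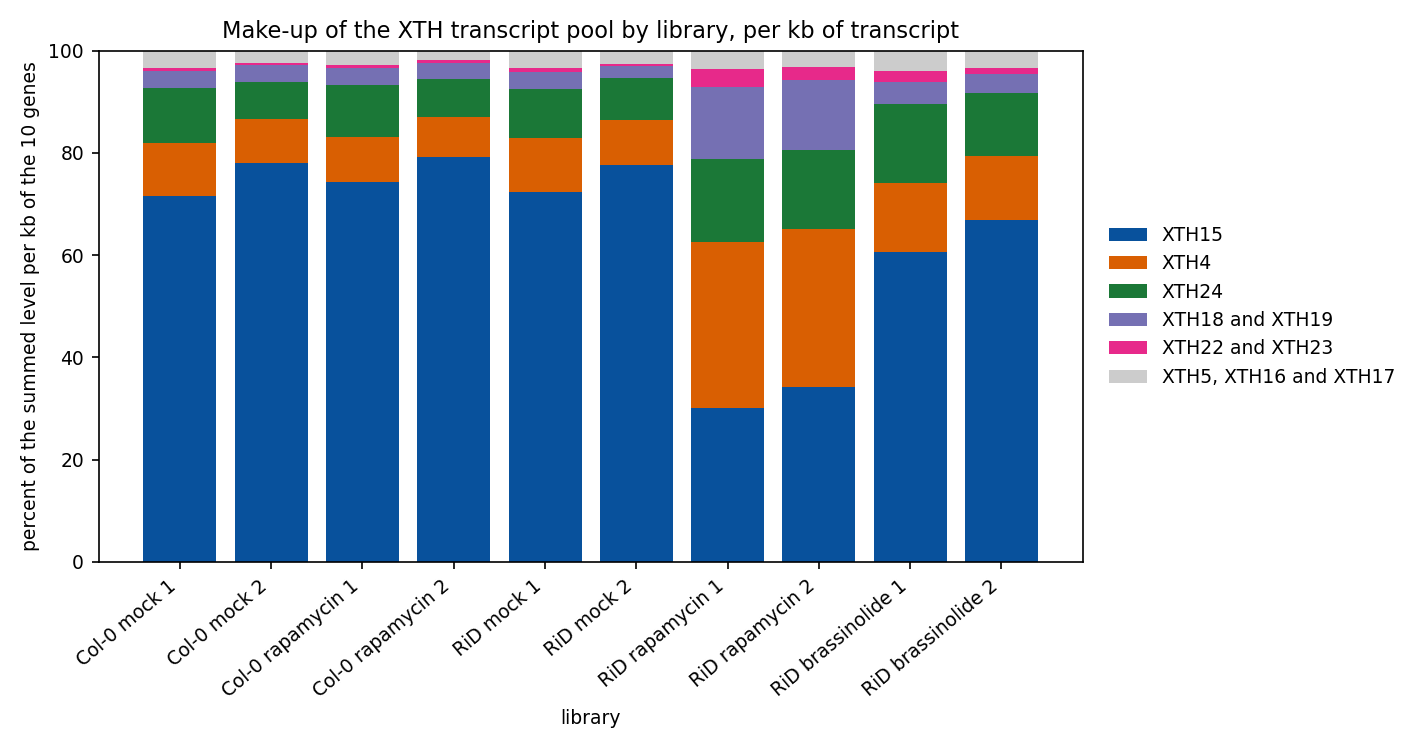
Share of each gene or gene pair (y axis, percent) in the level per kb summed over the 10 XTH genes, for each of the 10 libraries (x axis). The XTH15 share is 30.02 and 34.27% in RiD rapamycin, and XTH4 takes 32.49 and 30.83% there.

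The profile over the 10 libraries showed which genes moved alike. Each profile was centred on its own mean of log2(normalized count + 1), and likeness was the mean absolute difference over the 10 libraries, a description with no test. Among the members XTH4 was nearest to XTH5, at 0.196, and then to XTH18, and XTH18 was 0.220 from XTH19. XTH15 and XTH23 were farthest apart, at 1.56. Outside the family, among loci with a mean of at least 100 normalized counts, XTH18 lay nearest to BEE1, a bHLH transcription factor known as an early brassinosteroid-responsive gene, at 0.098, and next to ORS1, at 0.10. XTH15 lay nearest to the TCP transcription factor TCP9, at 0.094, and to the aquaporin PIP2;8, at 0.115. XTH23 lay nearest to AT1G66880 and to the beta-galactosidase BGAL7, both at 0.108.

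For XTH4 the nearest loci were the calcium sensor CBL1 at 0.074 and AT3G56050 at 0.078, and for XTH5 WAVH1 at 0.072 and AT5G06700 at 0.079. For XTH16 they were AT5G44440 at 0.125 and the protein kinase CIPK5 at 0.131, and for XTH17 the acyltransferase GPAT8 at 0.125 and MUR1, an enzyme of GDP-fucose synthesis, at 0.126. XTH19 had the most distant first neighbour of the 10, AT2G26440 at 0.152, followed by AT1G27020 at 0.168. For XTH22 they were PP2-A13 at 0.099 and AT5G38005 at 0.108, and for XTH24 NDA2 at 0.071 and Hop3 at 0.090.

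Whole seedlings hold roots and shoots, and in such bulk samples fewer cells of a type and less RNA per cell cannot be told apart. Of 7 root hair markers 6 were called lower with rapamycin and 6 with brassinolide in RiD, beside 9.72% and 2.13% of all loci. Their summed level was 198 to 215 normalized counts in RiD mock, 13.9 to 19.9 in RiD rapamycin and 15.81 to 16.99 in RiD brassinolide, where EXPA7, EXPA18 and LRX1 were at 0 in both libraries. Of 6 genes listed as root endodermis markers 4 were called higher with rapamycin and 1 with brassinolide, beside 12.3% and 4.63% of all loci. Their summed level was 7172 to 8744 in RiD mock, 18255 to 18544 in RiD rapamycin and 12643 to 13459 in RiD brassinolide. Of 6 genes listed as shoot greening markers 2 were called lower with rapamycin and 0 with brassinolide, beside 9.72% and 2.13% of all loci. Their sums were 257135 to 309241 in RiD mock, 162293 to 212456 in RiD rapamycin and 219399 to 234497 in RiD brassinolide. The seedlings were dark-grown, and this sum is not read as a degree of greening. With the block 6 root hair markers were called lower and 4 endodermis markers higher with each treatment. Greening markers called lower were then 5 with rapamycin and 1 with brassinolide. In that fit 5604 of all loci were called higher and 5611 lower with rapamycin, and 3445 and 2979 with brassinolide. The Col-0 sums were 172 to 312, 7947 to 9448 and 294508 to 333303 for the 3 lists. These summed levels stand beside the XTH calls in RiD, among them those of the root-associated XTH18 and XTH19, and their part in the results was not tested.

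Of the other 23 XTH genes 20 passed the filter, and XTH1, XTH3 and XTH29 were at or near 0 in all libraries. With rapamycin in RiD 7 were called higher and 6 lower, beside 12.3% and 9.72% of all loci, with a median log2 difference of -0.17 over the 20. With brassinolide 4 were called higher and 4 lower, beside 4.63% and 2.13% of all loci, with a median of 0.12. With the block the counts were 8 higher and 9 lower for rapamycin and 7 higher and 6 lower for brassinolide. In that fit 48.2% of all loci were called for rapamycin, 5604 higher and 5611 lower. For brassinolide 27.6% were called, 3445 higher and 2979 lower. The 8 brassinolide calls came to 0 without RiD brassinolide 1, 1 without RiD mock 1, 3 without RiD mock 2 and 5 without RiD brassinolide 2. Called for rapamycin with the largest differences were XTH21, XTH2 and XTH32. XTH21, known from primary root growth, had 61.9 and 41.5 normalized counts with mock, 0 and 1.53 with rapamycin and 0 and 3.86 with brassinolide. XTH2 had 1.29 and 1.60 with mock, 61.3 and 61.2 with rapamycin and 25.1 and 12.4 with brassinolide. Their log2 differences of -5.02 and 4.67 for rapamycin set a few reads on one side and depend on the added constant of 1.

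XTH32, one of the pair of family members known or predicted to act mainly as hydrolases, had 648 and 705 normalized counts with mock, 65.4 and 48.2 with rapamycin and 209 and 297 with brassinolide. The difference was -3.57 (SE 0.245) for rapamycin, adjusted p = 6.8e-05, and -1.44 for brassinolide, adjusted p = 0.0119. With brassinolide the largest called differences were those of XTH21, at -4.55, of XTH25, at 3.76, and of XTH2, at 2.93. These 3 and XTH32 each lost the brassinolide call without RiD mock 1 and without RiD brassinolide 1, at adjusted p of 0.0516 to 0.197 over the libraries that mattered. XTH2 and XTH32 also lost it without RiD mock 2, XTH2 without RiD brassinolide 2 and XTH25 without Col-0 rapamycin 1 or Col-0 rapamycin 2.

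Some members have family neighbours in tandem arrays. XTH14 begins 0.36 kb beyond XTH23 on the same strand of chromosome 4. It had 96.7 and 72.7 normalized counts in RiD mock, 48.7 and 35.9 with rapamycin and 19.8 and 31.6 with brassinolide, where XTH23 rose. Its differences were -0.99 for rapamycin, adjusted p = 0.0489, and -1.71 for brassinolide, adjusted p = 0.0136. The first call was lost in 8 of the 10 fits without a library, all but those without RiD brassinolide 1 or 2, at 0.0672 to 0.225. The second was lost without RiD mock 1 or RiD brassinolide 1, at 0.0954 and 0.103.

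XTH12, XTH13 and XTH25 lie in a row with XTH22 on chromosome 5, with 0.56 kb between XTH25 and XTH22 and 1 other annotated protein-coding gene within the row. XTH25 had 1.29 and 11.99 normalized counts in RiD mock, 43.1 and 71.1 with rapamycin and 122 and 43.2 with brassinolide. It had 40.3 and 39.6 in Col-0 mock, so the RiD mock libraries were the low ones. Its rapamycin difference of 3.37, adjusted p = 0.0171, lost its call without RiD mock 1 or RiD rapamycin 2, at 0.0601 and 0.0974. XTH12 had 7.73 and 3.19 in RiD mock and 0 in all 4 treated RiD libraries, and XTH13 had 11.6 and 2.40 in RiD mock, 0 and 0.77 with rapamycin and 0 in both with brassinolide. These values are those of a few reads, and neither gene was called, at adjusted p of 0.0659 and 0.188 for rapamycin. XTH12 was called lower for rapamycin with an added constant of 0.5 (0.0405), with the block (0.0146) and without Col-0 rapamycin 1 or Col-0 rapamycin 2 (0.0281 and 0.03), and for brassinolide with the block (0.0253).

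**Figure D4:**
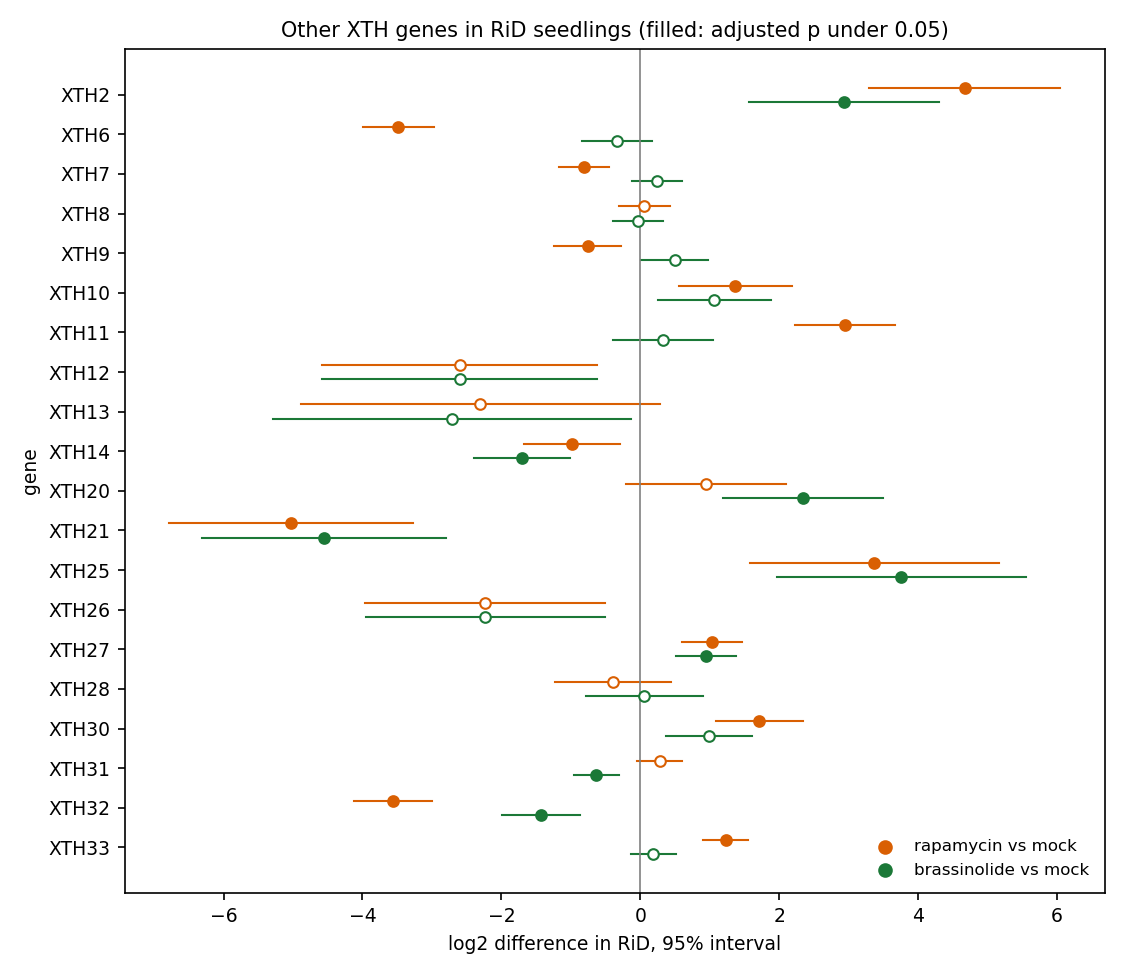
Differences of log2(normalized count + 1) with 95% intervals (x axis) for the 20 other XTH genes that passed the filter (y axis), for rapamycin and for brassinolide against mock in RiD, with filled points for adjusted p under 0.05. Points lie on both sides of 0, from -5.02 for XTH21 to 4.67 for XTH2 with rapamycin.

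Genes that make, trim and acetylate xyloglucan, the substrate of the XTHs, were read out in the same libraries. Of 17 such genes 4 were called higher and 1 lower with rapamycin in RiD, beside 12.3% and 9.72% of all loci, with a median log2 difference of 0.07. With brassinolide 0 were called higher and 1 lower, beside 4.63% and 2.13% of all loci, with a median of -0.08. With the block 10 of the 17 were called for rapamycin and 7 for brassinolide, beside 48.2% and 27.6% of all loci. Leaving out RiD rapamycin 2 or RiD mock 2 turned the 5 rapamycin calls into 1. Leaving out RiD rapamycin 1 or either Col-0 mock library left 3. XYL1, the alpha-xylosidase that trims xyloglucan side chains in the wall, fell with both treatments. It had 9367 and 8962 normalized counts with mock, 3386 and 3986 with rapamycin and 5575 and 6234 with brassinolide. The differences were -1.32 (SE 0.146), adjusted p = 0.000552, and -0.64 (SE 0.146), adjusted p = 0.0387. The brassinolide call was lost in 9 of the 10 fits without a library, all but the one without RiD rapamycin 1, with adjusted p up to 0.257.

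AXY4, a xyloglucan O-acetyltransferase, had 293 and 197 normalized counts with mock and 483 and 429 with rapamycin, a difference of 0.92, adjusted p = 0.0387. XXT1, a xylosyltransferase that adds side chains, had 737 and 627 with mock and 1018 and 1121 with rapamycin, a difference of 0.65, adjusted p = 0.0165. The AXY4 call was lost without either Col-0 mock library, either RiD rapamycin library or RiD mock 2, at 0.0542 to 0.186. The XXT1 call was lost without RiD mock 2 or RiD rapamycin 2, at 0.0956 and 0.0989. The other 2 calls were CSLC5, a glucan synthase of the xyloglucan backbone, at 0.56, adjusted p = 0.0248, and BGAL10, a beta-galactosidase acting on xyloglucan, at 0.52, adjusted p = 0.049. Both were named after their values were seen. CSLC5 lost its call without any 1 of the RiD mock and RiD rapamycin libraries, at 0.0777 to 0.117. BGAL10 lost it in 9 of the 10 fits without a library, all but the one without RiD rapamycin 1, at 0.069 to 0.257.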

How the data were processed

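Poly(A) RNA of whole seedlings was sequenced with a stranded kit, per the labels' protocols. The authors deposited signal values, which are normalized counts for each transcript. The tools Salmon and DESeq2 are listed in the submitters' processing notes. The sources used here do not give versions, settings, annotation or genome build. The 40812 transcripts were summed to 32753 loci. Low values were not whole multiples of a step in every column (51.7% to 99.6% of them within 0.1 reads), so no count test was run.

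The 23285 loci that reached 1 normalized count in 2 or more libraries were tested on log2(value + 1) by limma 3.58.1 (R 4.3.3) with trend and robust moderation. One fit held the 5 groups, with 5 residual degrees of freedom. The limma p-values were adjusted by Benjamini-Hochberg within a comparison over all loci, with a threshold of 0.05. The design named a count test for raw counts and this test for normalized values. The fits were tested on simulated data. Nothing in the labels says that libraries of 1 group are separate plantings. The p-values thus rest on the spread among the libraries at hand, which may be technical.

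Same-numbered libraries deviated together from their groups, with correlations of 0.32 to 0.51 over the 10 pairs of groups. A second fit therefore blocks on the number and has 4 residual degrees of freedom. The number comes from the sample titles.

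Sequences, positions and transcript lengths were read from RefSeq's TAIR10.1 by locus identifier, since the files give no coordinates. All 10 genes matched, as did the other 23 XTH genes, and 705 loci were not in the RefSeq gene table.

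The named genes were all 10 members, other XTH and xyloglucan genes called with the 3 largest differences per list, tandem neighbours, and the 2 loci nearest in profile to each member. Members and lists were chosen with earlier results of these data known.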

Additional observations from a re-analysis of the deposited data

Results flagged for a closer look

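The effect of rapamycin differed between RiD and Col-0 seedlings for 6 of the 10 XTH genes, by the test of the difference itself in limma over all loci. On the log2 scale the RiD effect minus the Col-0 effect was 2.267 for XTH23 (adjusted p = 0.000857), 1.917 for XTH18 (0.00491), 1.819 for XTH19 (0.00779), 1.448 for XTH22 (0.0427), 1.353 for XTH4 (0.00578) and -1.787 for XTH15 (0.0125). Of all loci 6.49% were called higher and 3.56% lower in this test. XTH22 lost its call in 7 of the 10 fits without a library, at 0.061 to 0.144, and XTH15 without Col-0 rapamycin 2, at 0.0528. With all libraries XTH22 also lost it under upper quartile rescaling (0.073) and in limma without trend and robust moderation (0.0658). Taking only the transcript with the highest mean gave 0.05 for XTH22, again without a call. In RiD both rapamycin libraries lay beyond both mock libraries for all 6 genes.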

How the results depend on the processing

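Across 6 comparisons, 10 genes and 20 alternatives there were 1200 single-gene values. Of these 1107 kept their side of the threshold, including 26 uncalled values that changed sign, 80 lost a call (60 of them on leaving out a library), 13 gained one (11 under the replicate block) and 0 called values changed sign. The other values kept their direction. With the replicate block, calls over all loci numbered 11215 for rapamycin against mock in RiD, 6424 for brassinolide against mock, 4650 for rapamycin against brassinolide, 43 for rapamycin in Col-0, 7893 for the difference between lines and 83 for RiD mock against Col-0 mock. Without it they numbered 5120, 1575, 596, 0, 2341 and 0. The XTH calls for brassinolide against mock went from 3 to 7 with the block, and to 1 with limma without trend and robust moderation or with a fit over the 2 groups alone. A fit over the 2 groups alone called 0 XTH genes and 116 loci for rapamycin against brassinolide, 2692 loci for rapamycin against mock and 566 for brassinolide against mock. Taking the transcript with the highest mean called 3 loci in Col-0, and limma without trend and robust moderation called 1 locus between mock groups.

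Leaving out 1 library at a time, XTH calls ran from 7 to 9 for rapamycin against mock, 1 to 3 for brassinolide against mock, 0 to 4 for rapamycin against brassinolide and 4 to 7 for the difference between lines. Calls over all loci ran from 2929 to 4672, from 478 to 1320, from 113 to 431 and from 1220 to 1890 in these comparisons, from 0 to 1 for rapamycin in Col-0 and from 0 to 2 between mock groups. The cause of these shifts was not tested, although each such fit had fewer libraries. Upper quartile rescaling moved the median of all loci to -0.110 for rapamycin against mock in RiD and -0.123 for the difference between lines, and no XTH call changed direction. A count test on reads, planned for files that give whole reads, was not run. With 2 libraries a group, a difference that missed the threshold is not shown to be absent, and low values such as those of XTH2, XTH12 and XTH21 rest on a few reads.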
